A study of Rattus norvegicus with 99 samples.

Results

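The natriuretic peptide system was followed through 6 genes, which were taken by their symbols from the 17337 genes of the whole-heart table: Nppa and Nppb, which encode the peptides ANP and BNP, Corin, which encodes the protease that cleaves the ANP precursor, and Npr1, Npr2 and Npr3, which encode the receptors. All 6 genes were found and all 6 passed the filter on low counts in each chamber. Natriuretic peptides are hormones that heart muscle cells release when the wall is stretched, and they promote the excretion of salt and water and relax blood vessels. Npr1 binds ANP and BNP and produces cyclic GMP (cGMP), Npr2 does the same for the C-type peptide, and Npr3 removes all of these peptides from the circulation. Ventricular Nppa is a classic fetal gene, since it is high in the fetal ventricle, low in the healthy adult ventricle and high again under load, whereas adult atria express it strongly at all times.

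The libraries were made from whole tissue of left ventricle (LV), septum (Spt) and right ventricle (RV) of 33 male rats, F1 offspring of Wistar Kyoto females and Lewis males, which gave 99 libraries in 21 groups of condition and chamber. A band around the pulmonary artery (PAB) or the aorta (AOB) was the load: a clip that did not constrict when it was placed tightened as the animal grew and loaded the RV in PAB and the LV in AOB. The compensated stage comprised 7 Sham-H, 7 PAB-H and 7 AOB-H animals, labelled 11 weeks of age and 7 weeks after surgery. The heart failure stage comprised 3 PAB-F animals with 2 Sham-RF controls, labelled 27 weeks of age and 21 weeks after surgery, and 4 AOB-F animals with 3 Sham-LF controls, labelled 30 weeks of age and 24 weeks after surgery. Sham animals had surgery without banding. Each replicate is a separate animal, and the same animal carries the same replicate number in each chamber. Libraries held 12.1 to 24.2 M (mega) counts. The ventricular cardiomyocyte markers Myl2 and Tnnt2 were high in every library, at 6148 to 13701 and 14237 to 29268 CPM.

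Levels of 1 gene between libraries are given as CPM (counts per 1 M counts, with TMM normalization over all 99 libraries), and levels between genes as FPKM, which also divides by gene length. The differences are log2 fold changes ± standard error from edgeR's quasi-likelihood test, with p-values adjusted by the method of Benjamini and Hochberg over all genes tested, and a gene was called at an adjusted p under 0.05. In whole tissue, a lower share of a cell type and less RNA per cell cannot be told apart. In 3 animals the libraries labelled LV and RV went against their labels, namely Sham-H replicate 6, PAB-H replicate 2 and AOB-H replicate 1. Over 50 genes chosen for their LV to RV difference in the other animals, the difference in these animals was -1.38 to -1.05 times the median of the others, against 0.29 to 1.44 times in the other 30 animals. The differences of the ligands and Npr3 between banding and sham at the compensated stage, the relations across those animals and the counts of animals by chamber are therefore given with and without them.

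The ligand genes are neighbours in the rat genome, and the windows of 250 bases before their starts are shown because Nppa and Nppb levels varied together over the libraries, as given further on. They lie at chr5:163711934-163712183 (Nppa) and chr5:163699758-163700007 (Nppb), both on the plus strand of the RefSeq assembly GRCr8, with starts 12.2 kb apart. Sequences were taken from RefSeq, which matched 5 of the 6 genes, and Npr2 was not matched. Capitals mark matches on either strand to GATA, the core of GATA factor sites, to AAGTG, the core of NKX2-5 sites, and to CATTCC, the core of TEAD sites.
Nppa: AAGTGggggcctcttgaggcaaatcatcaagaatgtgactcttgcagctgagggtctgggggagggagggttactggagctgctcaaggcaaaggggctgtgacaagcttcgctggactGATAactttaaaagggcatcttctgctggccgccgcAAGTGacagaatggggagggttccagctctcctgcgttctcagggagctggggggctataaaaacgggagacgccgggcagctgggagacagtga
Nppb: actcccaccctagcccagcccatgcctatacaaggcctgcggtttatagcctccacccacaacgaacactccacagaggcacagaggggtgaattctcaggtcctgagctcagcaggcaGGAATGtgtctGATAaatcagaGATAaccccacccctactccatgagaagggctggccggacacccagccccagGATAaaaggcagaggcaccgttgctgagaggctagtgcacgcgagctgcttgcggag
In the Nppa window GATA begins 131 bases and AAGTG 250 and 95 bases before the start. In the Nppb window GATA begins 120, 109 and 57 bases before the start, and CATTCC on the minus strand begins 131 bases before it. These matches did not overlap with each other. Of 33469 rat promoter windows of this length, 55.9% held GATA, 40.6% held AAGTG and 12.1% held CATTCC, and 10.5% held GATA at least 3 times, as Nppb did. Among the other members, Npr3 held 2 matches of GATA, and neither Corin nor Npr1 held any of the motifs.

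The ligand transcripts were far more abundant than those of the protease and the receptors. Over all 99 libraries the median FPKM, a level per length, was 869 for Nppa (range 59.3 to 21097) and 560 for Nppb (61.5 to 2132), against 14.4 for Corin, 14.3 for Npr1, 12.1 for Npr2 and 8.81 for Npr3. Nppa was the most abundant of the 6 genes in 76 libraries and Nppb in the other 23, and Npr3 was the least abundant in 76. The genes also differed in how much they varied. From the lowest to the highest library the CPM level spanned 358-fold for Nppa, 34.7-fold for Nppb, 10.3-fold for Corin and 8.83-fold for Npr3, but 2.38-fold for Npr1 and 1.98-fold for Npr2. Ordered by mean CPM, the 21 groups ran for Nppa from Sham-RF RV (50.1) to AOB-F LV (9869) and for Nppb from Sham-RF RV (68.5) to AOB-F Spt (947). Neighbours in this order differed by more than the SD of both groups for 1 of 20 neighbouring pairs of Nppa and for none of the 20 pairs of the other genes.

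**Figure D1:**
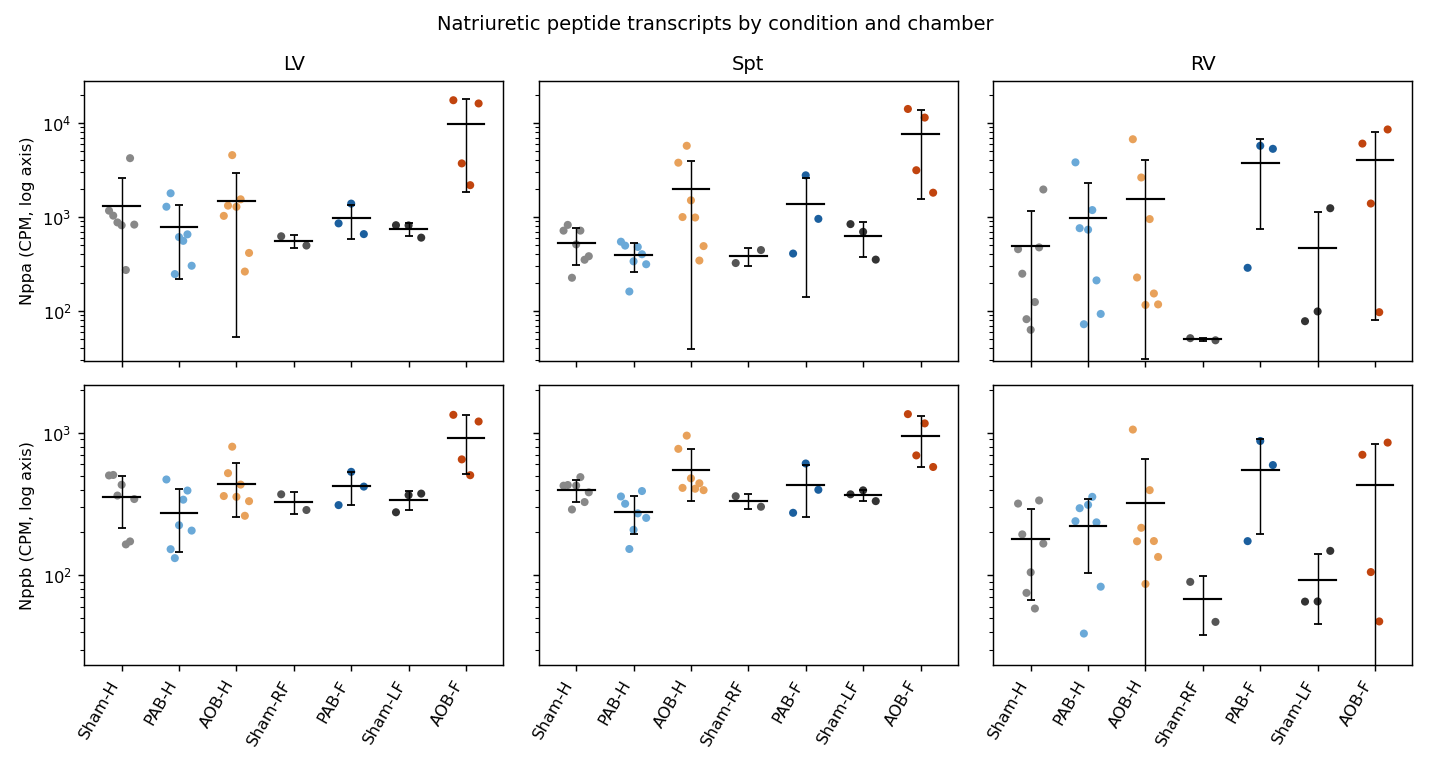
CPM (log axis) of Nppa and Nppb for the 7 conditions, with 1 column of panels per chamber. Each point is 1 library, the horizontal line is the group mean and the bar ± SD, which runs off the axis where the SD exceeds the mean. The 4 AOB-F libraries lie above all Sham-LF libraries in LV and Spt. In RV, AOB-F replicate 3 (97.1 CPM of Nppa and 47.5 CPM of Nppb) and, for Nppb, also replicate 2 (105 CPM) lie below the highest Sham-LF library (1239 and 148 CPM).

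Aortic banding at the heart failure stage loads the LV, and there Nppa reached its highest level of the series. Nppa was 17453, 3715, 2180 and 16127 CPM in AOB-F LV replicates 1 to 4 and 818, 813 and 603 CPM in the Sham-LF LV libraries, so that the groups did not overlap and the AOB-F animals differed among themselves by more than the lowest of them differed from sham. Nppb was 1338, 651, 504 and 1201 CPM in AOB-F and 277, 366 and 374 CPM in Sham-LF, again without overlap. The animals kept their order between the transcripts, with replicates 1 and 4 high and replicates 2 and 3 low for both. The log2 fold change was 3.73 ± 0.93 for Nppa (adjusted p = 0.0472) and 1.44 ± 0.44 for Nppb (adjusted p = 0.103). Nppa thus was the 1 member called of 6, beside 0.837% of the 11703 genes tested, and 3 of 6 members did not overlap between the groups (Nppa, Nppb and Npr3), beside 11.9% of all genes. The call of Nppa rested on single libraries: without 1 library at a time the log2 fold change was 3.30 to 4.06 and the adjusted p 0.0091 to 0.253, and the call held only without AOB-F replicate 2 or 3. The highest atrial Myl7 level among the AOB-F LV libraries was in replicate 4 (268 CPM, described further on), and without it Nppa differed by 3.38 ± 0.87 (adjusted p = 0.332) in a fit that also left out 6 other LV libraries with high Myl7. Markers of other cell types differed here as well, none of them called: the summed level of 4 macrophage markers was 155 to 216 CPM in AOB-F LV and 113 to 165 CPM in Sham-LF LV, with 4 of 4 higher and a median log2 fold change of 0.54, and that of 5 fibroblast markers was 2599 to 3445 against 2226 to 2470 CPM, with 3 of 5 higher. Of 4 adipocyte markers 3 had higher means and 3 an unadjusted p under 0.05, with a median of 3.78, although their summed level was 745 to 1192 against 879 to 1209 CPM. All 3 mesothelial markers tested were higher, with a median of 1.75 and 1 unadjusted p under 0.05, at sums of 29.9 to 80.8 against 26.2 to 31.0 CPM. Of 6 ventricular cardiomyocyte markers 2 were higher, with a median of -0.17 and 3 unadjusted p under 0.05. The part of these cell types in the ligand levels was not tested.

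The septum, which both ventricles share, gave ligand levels in the range of those in LV. Nppa was 14091, 3143, 11410 and 1813 CPM in AOB-F Spt and 840, 696 and 352 CPM in Sham-LF Spt, and Nppb was 1353, 694, 1164.7 and 576 against 370, 395 and 332 CPM. The AOB-F libraries were all above the sham libraries, but the animal order differed from LV, with replicate 3 high and replicate 4 low. A sample sheet of the study exchanges the Spt columns of replicates 1 and 2, which bears on the animal and not on the group. The log2 fold changes were 3.58 ± 0.83 for Nppa (adjusted p = 0.0554) and 1.36 ± 0.33 for Nppb (adjusted p = 0.0613). No member was called, beside 0.232% of 11624 genes, and 3 of 6 did not overlap (Nppa, Nppb and Npr3), beside 9.76% of all genes. DESeq2 called Nppa, Nppb and Npr3 here, beside 0.985% of 14618 genes, and 3 members had an unadjusted p under 0.05, as had 12.2% of all genes. Without the 9 Spt libraries with high Myl7 the log2 fold changes were 4.604 for Nppa (adjusted p = 0.0029), 1.79 for Nppb (adjusted p = 0.0026) and 1.30 for Npr3 (adjusted p = 0.0198), beside 11.7% of 11517 genes called. That choice removed AOB-F replicates 2 and 4, which had the lowest Nppa of the group (3143 and 1813 CPM), and Sham-LF replicate 1, and it left 2 libraries against 2. Markers of other cell types differed in Spt too, none of them called. All 4 macrophage markers were higher in AOB-F, with a median log2 fold change of 0.46, 2 unadjusted p under 0.05 and sums of 98.05 to 139 against 74.9 to 92.8 CPM, and of 6 ventricular cardiomyocyte markers 2 were higher, with a median of -0.19 and 3 unadjusted p under 0.05. Their part in the ligand levels was not tested.

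The aortic band does not load the RV directly, and the RV load of these animals is not part of the data used here. In RV the ligands were high in some AOB-F animals and at sham level in others. Nppa was 6034, 1390, 97.1 and 8530 CPM in AOB-F RV and 77.9, 98.9 and 1239 CPM in Sham-LF RV, and Nppb was 701, 105, 47.5 and 854 against 65.4, 65.6 and 148 CPM. AOB-F replicates 1 and 4 exceeded every sham library for both transcripts, and replicate 3 was at the level of the shams. The log2 fold changes were 3.09 ± 1.64 for Nppa (adjusted p = 0.409) and 2.196 ± 0.90 for Nppb (adjusted p = 0.352), and 0 of 6 members were free of overlap, beside 9.88% of 11734 genes. No gene was called by edgeR here (0%), while 12.9% of all genes and 1 member, Nppb, had an unadjusted p under 0.05, and DESeq2 called no member. Sham-LF replicate 3, whose Nppa was highest of the shams, also had 549 CPM of Myl7, and without that library alone the log2 fold changes were 5.49 for Nppa and 2.69 for Nppb. Without all 7 RV libraries with high Myl7, which left AOB-F replicates 1 and 4 against Sham-LF replicates 1 and 2, they were 6.36 for Nppa (adjusted p = 0.0323), 3.57 for Nppb (adjusted p = 0.0329) and 1.72 for Npr3 (adjusted p = 0.0298), beside 20.4% of 11664 genes called. That choice also removed AOB-F replicate 3, with 97.1 CPM of Nppa and 91.5 CPM of Myl7.

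Pulmonary artery banding at the heart failure stage loads the RV. Nppa was 288, 5715 and 5308 CPM in PAB-F RV and 51.4 and 48.8 CPM in Sham-RF RV, and Nppb was 174, 877 and 594 against 89.9 and 47.1 CPM. All 3 banded animals were above both shams, and replicate 1 was far below the other 2 for both transcripts. The log2 fold changes were 6.23 ± 2.36 for Nppa and 2.99 ± 1.14 for Nppb, both with an adjusted p of 0.524. No gene was called by edgeR (0%), 3 members had an unadjusted p under 0.05, beside 8.37% of all genes, and DESeq2 called no member. Of the 6 members 3 did not overlap (Nppa, Nppb and Npr2), beside 35.4% of all genes. Replicate 3 carried 1043.95 CPM of Myl7 and replicate 2 carried 2.15 CPM, and their Nppa levels were alike. Without the libraries with high Myl7 the log2 fold change of Nppa was 5.90 ± 2.00 (adjusted p = 0.50). Summed marker levels of 2 cell types were lower in every PAB-F RV library than in both shams. They were 160 to 244 against 292 to 303 CPM for 4 endocardial markers and 54402 to 63061 against 64714 to 64826 CPM for 6 ventricular cardiomyocyte markers. The sums of the other marker lists overlapped. Their part in the ligand levels was not tested.

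Outside the loaded chamber the PAB-F animals showed smaller values. In LV, Nppa was 855, 1388 and 658 CPM against 623 and 497 CPM in Sham-RF (log2 fold change 0.79 ± 0.98), and in Spt it was 408, 2774 and 955 against 324 and 445 CPM (1.84 ± 0.92, adjusted p = 0.816). Replicate 2 was highest in all chambers. In LV 2 of 6 members did not overlap (Nppa and Npr2), beside 18.6% of all genes, and in Spt 3 did not (Corin, Npr1 and Npr3), beside 42.7%. No gene was called by edgeR in either (0%), the unadjusted p was under 0.05 for no member in either and for 1.04% and 4.14% of all genes, and DESeq2 called no member.

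At the compensated stage the comparisons of PAB-H and AOB-H share the 7 Sham-H animals, and edgeR called no gene in any chamber (0%). In Spt, Nppa ranged from 344 to 5721 CPM in AOB-H with a median of 998, from 161 to 546 in PAB-H with a median of 402, and from 226 to 824 in Sham-H with a median of 511. The AOB-H values were high in replicates 1 and 3, at 3780 and 5721 CPM, and overlapped with sham in replicates 6 and 7. The difference from Sham-H was 1.90 ± 0.52 (adjusted p = 0.187) for AOB-H, or 1.58 ± 0.57 without the 3 animals, and -0.44 ± 0.51 for PAB-H, or -0.59 ± 0.56 without them. DESeq2 called Nppa for AOB-H and no other member, beside 0.0958% of 14618 genes, and 3 members had an unadjusted p under 0.05, beside 15.9% of all genes. Nppb in Spt gave 0.48 ± 0.22 for AOB-H and -0.50 ± 0.22 for PAB-H (adjusted p = 0.288 and 0.790), or 0.34 ± 0.24 and -0.58 ± 0.24 without the 3 animals. The 4 macrophage markers were all higher in AOB-H Spt than in Sham-H Spt with an unadjusted p under 0.05, a median of 0.42 and sums of 107 to 203 against 81.9 to 133 CPM, none called, and their part was not tested. For PAB-H the unadjusted p was under 0.05 for Nppb alone of the members and for 4.44% of all genes, and DESeq2 called no member.

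In LV at that stage, Nppa ranged from 263 to 4551 CPM in AOB-H (median 1282), from 247 to 1787 in PAB-H (median 611) and from 273 to 4222 in Sham-H (median 876). The highest sham value belonged to Sham-H replicate 6, 1 of the 3 animals named above, whose library labelled LV also held 1035.9 CPM of Myl7. The difference of AOB-H from Sham-H was 0.17 ± 0.56, or 0.91 ± 0.54 without the 3 animals and 1.38 ± 0.85 without the libraries with high Myl7, which were 5 of the 7 Sham-H LV libraries and none of the AOB-H LV libraries. Myl7 itself differed by -4.17 ± 1.202 between these groups (adjusted p = 0.765), and its part in the Nppa difference was not tested beyond this. In RV, Nppa ranged from 72.3 to 3811 CPM in PAB-H (median 733), from 116 to 6713 in AOB-H (median 227) and from 63.1 to 1961 in Sham-H (median 249). The PAB-H difference there was 1.01 ± 1.03, or 1.06 ± 1.09 without the 3 animals. The AOB-H difference in RV was 1.70 ± 1.05 and became 0.52 ± 1.08 without them, and the 6713 CPM were those of AOB-H replicate 1. In LV and RV the unadjusted p was under 0.05 for no member, and for 0.937% to 4.72% of all genes, and DESeq2 called no member.

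**Figure D2:**
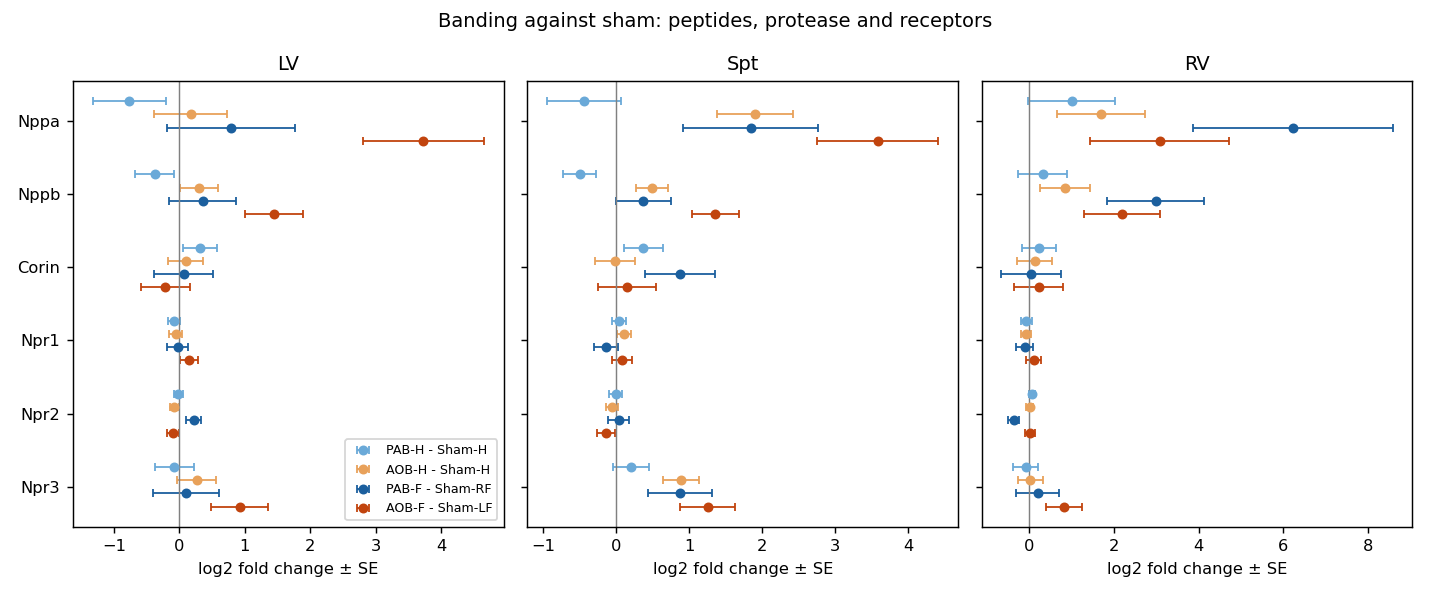
Log2 fold change ± SE (x axis, with its own scale in each chamber) of the members for the 4 comparisons of banding with sham, with 1 panel per chamber. At the heart failure stage Nppa has the largest value in each chamber, up to 6.23 ± 2.36 in RV of PAB-F, while in Spt of PAB-F Corin and Npr3 (0.87 each) exceed Nppb (0.37), and Npr1 and Npr2 stay between -0.36 and 0.22 in every comparison.

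The change of ligand between stages was tested as an interaction. For AOB in LV the log2 difference of differences was 3.55 ± 1.04 for Nppa and 1.14 ± 0.52 for Nppb (adjusted p = 0.462 and 0.616), and for PAB in RV it was 5.22 ± 2.37 and 2.67 ± 1.24 (adjusted p = 1.00 for both). No gene was called in either test (0%), 2 and 3 members had an unadjusted p under 0.05, beside 7.6% and 2.67% of all genes, and DESeq2 called no member. The compensated part of the AOB test holds Sham-H replicate 6 and AOB-H replicate 1, whose LV and RV libraries went against their labels. Without the 3 animals that part was larger for Nppa, as given above, so the value of 3.55 depends on these labels. The atrial transcript Myl7 gave 6.54 ± 2.17 in the same AOB test in LV (adjusted p = 0.462). Of the 9 atrial markers described further on, 7 were higher in that test, 3 with an unadjusted p under 0.05 and none called. Their part in the Nppa value was not tested. In the older shams age and time since surgery cannot be told apart, and both are partly confounded with library series, the runs of library numbers described further on. The older shams fall in 1 series per chamber and Sham-H in more than 1. Between the older shams and Sham-H no member was called, beside 0.0171% of LV genes, 0.103% of Spt genes and 0.0852% of RV genes. The unadjusted p was under 0.05 for 6.99%, 16.8% and 11% of them and for 1 member, Npr1 in Spt, and DESeq2 called no member. Npr1 in Spt was at 68.4 ± 14.3 CPM (SD, n = 5) in the older shams and at 54.8 ± 5.62 CPM (SD, n = 7) in Sham-H, a log2 difference of 0.28 ± 0.11 (adjusted p = 0.191).

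Npr3, the clearance receptor, was higher in every AOB-F library than in every Sham-LF library of LV and Spt, as the ligands were, although it was not called. In LV, Npr3 was 36.8, 19.6, 20.1 and 24.4 CPM in AOB-F and 16.4, 9.14 and 14.2 CPM in Sham-LF, with the lowest banded animal above the highest sham. The log2 fold change was 0.92 ± 0.43 (adjusted p = 0.365). In Spt, Npr3 was 22.6, 19.2, 28.5 and 13.7 CPM in AOB-F and 5.54, 8.09 and 12.4 CPM in Sham-LF, and the log2 fold change was 1.25 ± 0.37 (adjusted p = 0.129). The Spt level was higher at the compensated stage too, with 9.83 to 29.8 CPM in AOB-H (median 18.8) and 4.31 to 16.6 CPM in Sham-H (median 10.6), a log2 fold change of 0.88 ± 0.25 (adjusted p = 0.192), or 0.85 ± 0.28 without the 3 animals, though 0.32 ± 0.23 without the libraries with high Myl7. In RV, Npr3 was 29.9, 17.7, 12.9 and 31.3 CPM in AOB-F against 9.63, 8.87 and 20.2 CPM (0.83 ± 0.43, adjusted p = 0.405). The same replicates 1 and 4 that were high in the RV ligands were high in Npr3. For PAB-F, Npr3 was 20.6, 21.7 and 38.1 CPM in RV against 18.8 and 27.5 CPM (0.21 ± 0.50), and 22.6, 18.2 and 15.3 CPM in Spt against 10.3 and 10.2 CPM (0.87 ± 0.44, adjusted p = 0.816).

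Npr1, the signalling receptor of ANP and BNP, differed little between groups. In LV it was 63.8, 73.1, 78.9 and 67.2 CPM in AOB-F and 61.5, 67.2 and 63.3 CPM in Sham-LF, with overlap and a log2 fold change of 0.14 ± 0.14 (adjusted p = 0.809). In Spt the AOB-F libraries lay between 76.8 and 81.2 CPM, within the range of the shams (59.9 to 93.3 CPM). Over the 12 comparisons of banding with sham, the Npr1 log2 fold change lay between -0.14 and 0.14, with standard errors of 0.10 to 0.20. Differences of Npr1 near these errors, or somewhat above them, were not detectable with groups of this size. Even Nppa in Spt of AOB-F, at 3.58 ± 0.83, was not called.

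Npr2, the receptor of the C-type peptide, was the steadiest of the 6 genes. Its largest difference was in the failing RV, where it was 42.4, 39.1 and 35.9 CPM in PAB-F and 52.2 and 48.1 CPM in Sham-RF, each banded animal below both shams. The log2 fold change was -0.36 ± 0.14 (adjusted p = 0.524), opposite in sign to those of Nppa and Nppb in the same libraries. In LV of the same animals it was 48.7, 43.4 and 41.7 CPM against 37.0 and 39.9 CPM, above both shams, and the log2 fold change was 0.22 ± 0.11 (adjusted p = 1.00). The test of the chamber difference of PAB-F, RV minus LV, gave -0.57 ± 0.18 for Npr2, 5.45 ± 1.99 for Nppa and 2.64 ± 1.03 for Nppb, each with an adjusted p of 0.988. No gene was called (0%), 3 members had an unadjusted p under 0.05, beside 4.89% of all genes, and DESeq2 called no member. For AOB-F, LV minus RV, the chamber difference was 0.64 ± 1.54 for Nppa and -0.75 ± 0.84 for Nppb, and no gene was called (0%), with 2.4% of genes and no member at an unadjusted p under 0.05 and no member called by DESeq2. Without Sham-LF replicate 3 the Nppa value became -1.91.

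Corin, whose protein is a transmembrane protease of cardiomyocytes, did not follow Nppa. In LV it was 50.05, 37.6, 50.2 and 44.5 CPM in AOB-F and 59.8, 29.4 and 69.0 CPM in Sham-LF (log2 fold change -0.21 ± 0.38), and in RV 57.0, 47.4 and 91.9 CPM in PAB-F and 45.7 and 80.5 CPM in Sham-RF (0.05 ± 0.70). The banded and the sham libraries overlapped in both comparisons. The highest value among the banding comparisons was in Spt of PAB-F, with 66.2, 55.7 and 48.5 CPM against 35.8 and 26.2 CPM (0.87 ± 0.48, adjusted p = 0.816). When only these 5 Spt libraries entered the fit, the adjusted p was 0.0132 for Corin and 0.0151 for Npr3, beside 7.1% of 11154 genes called in that fit.

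Corin and Npr3 also differed between the runs of library numbers, which are called library series here. In the compensated RV, Corin was 13.8 to 38.7 CPM in series 1, 46.8 to 142 CPM in series 2 and 59.1 to 125 CPM in series 3. In the compensated LV, Npr3 was 5.54 to 10.0 CPM in series 1, 12.5 to 28.0 CPM in series 2 and 13.0 to 24.4 CPM in series 3. Series 1 did not overlap with the others in either case. The 3 compensated conditions are spread evenly over the series, and the failing LV and RV libraries are all of series 2 and the failing Spt libraries all of series 3, so that the comparisons with sham lie within or balance the series.

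**Figure D3:**
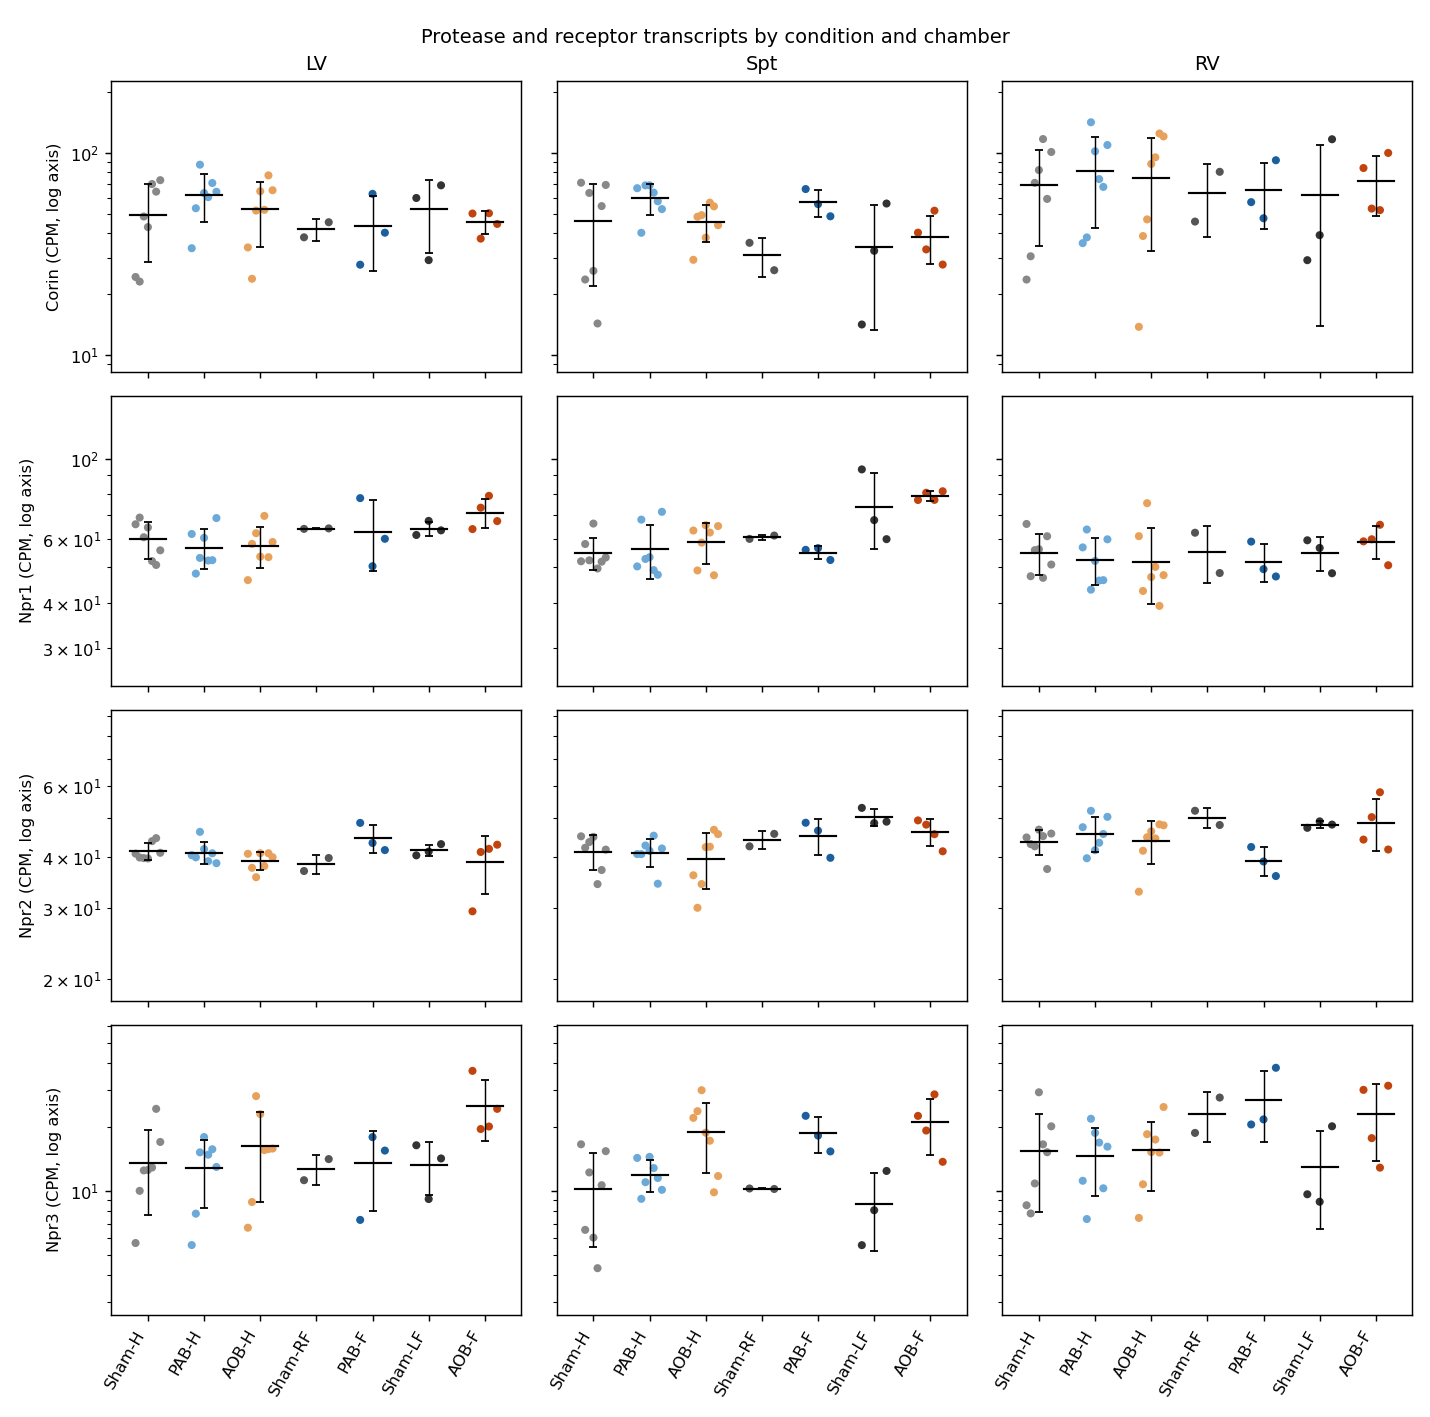
CPM (log axis) of Corin, Npr1, Npr2 and Npr3 for the 7 conditions, with 1 column of panels per chamber. Each point is 1 library, the line is the group mean and the bar ± SD. Npr1 and Npr2 stay between 29.4 and 93.3 CPM throughout, Npr3 is above every Sham-LF library in each AOB-F library of LV and Spt, and Corin spreads widely within groups.

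Ligand and receptor levels were set against each other per length within each library. In LV, the ratio of Nppa to Npr1 FPKM was 138 to 1367 in AOB-F and 47.6 to 66.5 in Sham-LF, against a median of 55.0 over all 99 libraries. The sum of the 3 receptors was 40.9 to 44.8 FPKM in AOB-F LV and 33.5 to 35.9 FPKM in Sham-LF LV. Npr3 made up 27.1% to 47.0% of this sum in AOB-F LV and 15.7% to 26.3% in Sham-LF LV, so the groups did not overlap. In Spt the Npr3 share was 19.98% to 34.1% in AOB-F and 7.77% to 19.99% in Sham-LF, so the lowest AOB-F library lay just below the highest Sham-LF library. In RV it was 30.9% to 50.2% in PAB-F and 26.4% to 38.4% in Sham-RF, which also overlapped.

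Because atria express Nppa strongly, each library was checked for Myl7, the atrial myosin light chain. Median Myl7 was 11.1 CPM in LV, 4.66 CPM in Spt and 15.6 CPM in RV, but single libraries reached 1131 CPM, a span of 1103-fold over all libraries. In 23 libraries, 7 in LV, 9 in Spt and 7 in RV, Myl7 exceeded 5 times the median of its chamber. The highest were PAB-H RV replicate 1 (1131 CPM), AOB-H RV replicate 3 (1097 CPM), PAB-F RV replicate 3 (1043.95 CPM) and Sham-H LV replicate 6 (1035.9 CPM). The other defining atrial transcripts were there too, since Myl7, Myl4 and Sln were at 0 in no library. Bmp10, an atrial growth factor, was at 0 in 24 LV, 24 Spt and 22 RV of the 33 libraries each and reached 78.8 CPM in PAB-F RV replicate 3.

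At the heart failure stage the summed levels of the 9 atrial markers overlapped between AOB-F and Sham-LF, as they did between PAB-F and Sham-RF in RV. At the chamber medians most of this sum was Dkk3 (145 to 199 CPM) and Stard10 (37.1 to 42.8 CPM), against 4.66 to 15.6 CPM for Myl7. The overlap of the sums therefore says little about small differences in atrial tissue. The sum was 186 to 792 CPM in AOB-F LV and 223 to 240 CPM in Sham-LF LV, 234 to 398 against 211 to 544 CPM in Spt, and 340 to 1092 against 337 to 1288 CPM in RV. In PAB-F RV it was 209 to 2196 CPM against 258 to 313 CPM in Sham-RF RV, with only replicate 3 above the shams. In LV at the compensated stage the atrial markers had lower means in AOB-H than in Sham-H, with 0 of 9 higher, a median of -1.07, 6 unadjusted p under 0.05 and sums of 198 to 248 against 242 to 2121 CPM. None of these markers was called by edgeR in any of the banding comparisons, and in AOB-F LV 1 of 9 had an unadjusted p under 0.05, Stard10, which was lower. The highest Nppa of the series, 17453 CPM in AOB-F LV replicate 1, was measured at 5.74 CPM of Myl7, and the AOB-F Spt libraries with 14091 and 11410 CPM of Nppa had 3.10 and 4.49 CPM. Conversely, Sham-H LV replicate 6 had 4222 CPM of Nppa with 173 CPM of Nppb and 1035.9 CPM of Myl7.

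**Figure D4:**
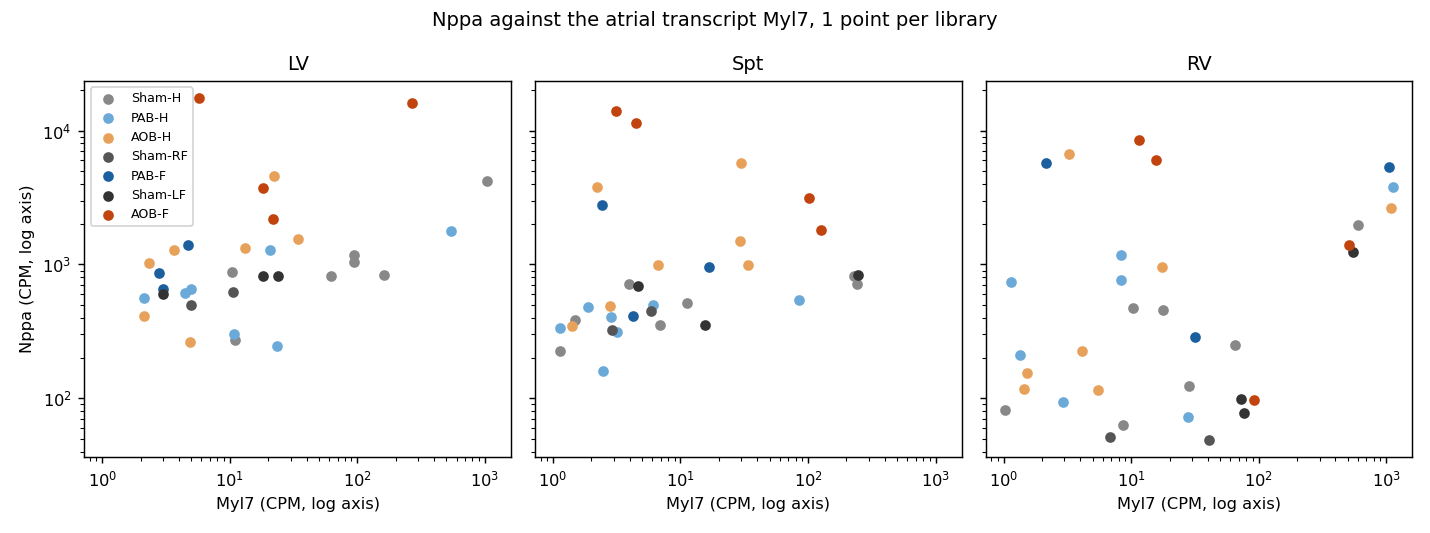
Nppa against Myl7, both in CPM on log axes, with 1 point per library in LV, Spt and RV. 3 AOB-F libraries (red) with 11410 to 17453 CPM of Nppa lie at 3.10 to 5.74 CPM of Myl7, and the 6 RV libraries with 511 to 1131 CPM of Myl7 have 1239 to 5308 CPM of Nppa.

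Several of the libraries with high Myl7 had much Nppa for their Nppb. The ratio of Nppa to Nppb FPKM had a median of 1.48 over all libraries and was 18.8 in Sham-H LV replicate 6, 12.3 in PAB-H RV replicate 1, 10.2 in AOB-F RV replicate 2, 9.42 in AOB-H RV replicate 3, 9.06 in Sham-H RV replicate 7 and 9.04 in PAB-H LV replicate 2, all with 511 to 1131 CPM of Myl7. It was also 10.4 in AOB-F LV replicate 4 with 268 CPM of Myl7 and 10.1 in AOB-F LV replicate 1 with 5.74 CPM. In Spt the highest ratios, 8.04 and 7.56, were in AOB-F replicates 1 and 3, with 3.10 and 4.49 CPM of Myl7. High ratios were therefore measured both with and without Myl7, and the part of atrial tissue in each Nppa level was not tested beyond leaving such libraries out.

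**Figure D5:**
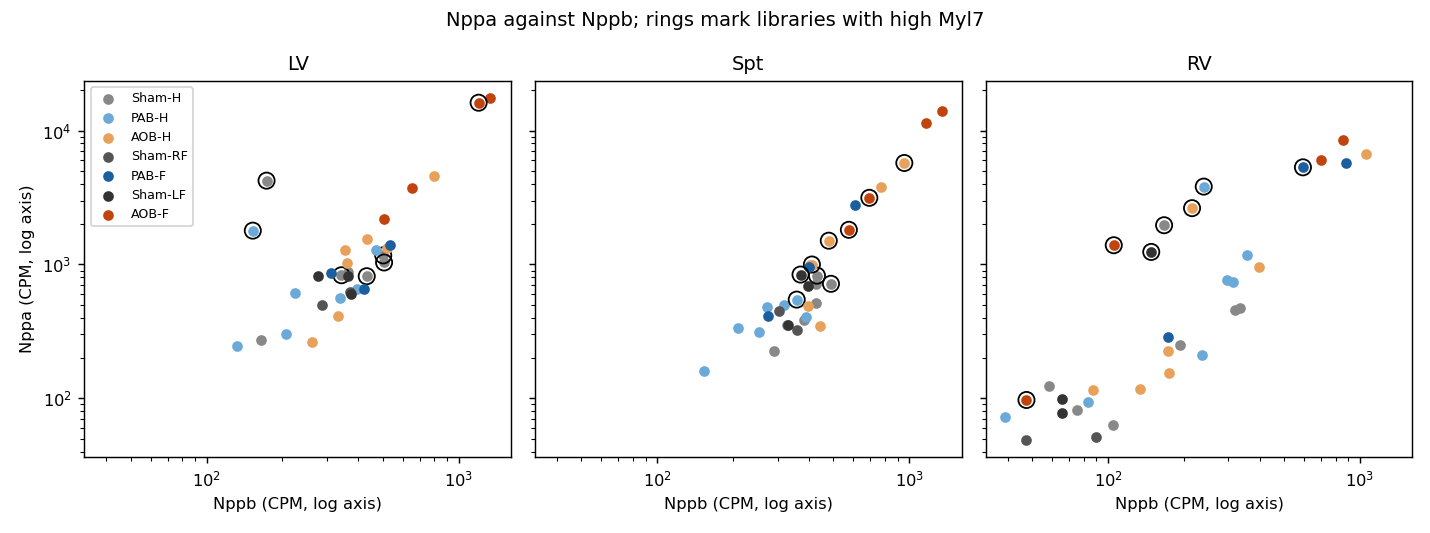
Nppa against Nppb, both in CPM on log axes, with 1 point per library, and rings around the 23 libraries whose Myl7 exceeds 5 times the chamber median. In Spt all points follow 1 band, whereas in LV and RV several ringed libraries, such as Sham-H LV replicate 6 at 4222 CPM of Nppa and 173 CPM of Nppb, lie above it.

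Across the 21 compensated animals, relations were computed for 5 pairs of genes in each chamber on log2 CPM, 15 in all, with two-sided permutation tests. The 3 conditions were pooled and permuted freely, without removing the means of condition or series, so a relation can also reflect differences between conditions. In Spt, for example, AOB-H exceeded Sham-H in Nppa, Nppb and Npr3, by log2 fold changes of 1.90, 0.48 and 0.88. Relations within a condition were not computed. Nppa was related to Nppb in Spt (Pearson r = 0.87, permutation p = 1e-05, the smallest the permutations can give, adjusted p = 0.00015, Spearman rho = 0.79, adjusted p = 0.00067) and in RV (r = 0.78, adjusted p = 0.00015, rho = 0.78, adjusted p = 0.00067). Without the 2 animals farthest from the median of Nppa, r was 0.74 in both. Within library series, r was 0.91 and 0.86 in Spt and 0.75, 0.85 and 0.45 in RV. In LV the relation was weaker (r = 0.44, permutation adjusted p = 0.0953, rho = 0.51, adjusted p = 0.0394) and differed between series, with r of -0.75, 0.94 and -0.39. It depended on the 3 animals whose LV and RV libraries went against their labels: over the other 18 animals r was 0.89 and rho 0.89 in LV (permutation adjusted p = 0.00015 and 0.0003), 0.85 and 0.76 in Spt, and 0.72 and 0.78 in RV (adjusted p = 0.00495 and 0.00139).

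Nppa was related to Myl7 in LV and RV (r = 0.52 and 0.51, permutation adjusted p = 0.0454 for both, rho = 0.48 and 0.38, adjusted p = 0.0516 and 0.127), while no such relation was detected for Nppb (r = -0.16 and 0.01, permutation adjusted p = 0.571 and 0.978, rho = 0.09 and 0.04). Over the 18 animals r of Nppa with Myl7 was 0.34 in LV (permutation adjusted p = 0.244) and 0.68 in RV (adjusted p = 0.00806), so that the LV relation rested on the 3 animals, and r of Nppb with Myl7 was 0.30 and 0.12 (adjusted p = 0.288 and 0.703). Without the 2 animals farthest from the median of Nppa, r with Myl7 was 0.42 and 0.56, and within series it ranged from 0.18 to 0.87 in LV and from 0.20 to 0.93 in RV. In Spt the rank relation of Nppa with Myl7 was stronger (rho = 0.65, permutation adjusted p = 0.00865) than the linear one (r = 0.41, adjusted p = 0.119), and within series r was -0.36 and 0.69. Nppb and Myl7 there gave r = 0.39 and rho = 0.47 (permutation adjusted p = 0.127 and 0.0516). Over the 18 animals these Spt values were r = 0.57 and rho = 0.79 for Nppa (permutation adjusted p = 0.0349 and 0.00135) and r = 0.50 and rho = 0.60 for Nppb (adjusted p = 0.0696 and 0.0252). Nppa was inversely related to Corin in RV (r = -0.57, permutation adjusted p = 0.0367, rho = -0.53, adjusted p = 0.0394), with r of -0.33 without the 2 farthest animals and between -0.55 and -0.32 within series. In LV and Spt the rank relation with Corin was -0.58 and -0.52 (permutation adjusted p = 0.0266 and 0.0394), with r of -0.40 and -0.37 (adjusted p = 0.122 and 0.131), although r within LV series 1 was 0.71. Over the 18 animals r with Corin was -0.39 in RV, -0.54 in LV and -0.29 in Spt (permutation adjusted p = 0.184, 0.0531 and 0.288), and rho was -0.44, -0.69 and -0.50 (adjusted p = 0.0988, 0.00669 and 0.077). Nppa and Npr3 gave r = 0.52 and rho = 0.46 in Spt (permutation adjusted p = 0.0454 and 0.0587), where r fell to 0.20 without the 2 farthest animals and thus rested on them, and r was 0.07 and -0.31 in LV and RV. Over the 18 animals r of Nppa with Npr3 was 0.46 in Spt, 0.02 in LV and -0.11 in RV (permutation adjusted p = 0.112, 0.934 and 0.703).

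In sham hearts the ligands differed between chambers at the level of single animals. Nppb was higher in LV than in RV in 11 of 12 sham animals and Nppa in 10 of 12, whereas Corin was higher in LV in 3 of 12. Without Sham-H replicate 6, whose LV and RV libraries went against their labels, these counts were 11, 9 and 2 of 11. In the banded animals both ligands were higher in LV in 4 of 4 AOB-F, 6 of 7 AOB-H, 4 of 7 PAB-H and 1 of 3 PAB-F animals. Without AOB-H replicate 1 and PAB-H replicate 2, the counts were 6 of 6 for both ligands in AOB-H, and 3 of 6 for Nppa and 4 of 6 for Nppb in PAB-H. In Sham-H, Nppb was 355 ± 141 CPM (SD, n = 7) in LV, 396 ± 68.2 CPM in Spt and 179 ± 112 CPM in RV. The log2 difference was 0.99 ± 0.42 for LV minus RV (adjusted p = 0.753) and 1.14 ± 0.42 for Spt minus RV (adjusted p = 0.284), and 1.32 and 1.40 without the 3 animals (adjusted p = 0.106 and 0.0732). No member was called, beside 0% of genes for LV minus RV, 0.772% for Spt minus RV and 0.0923% for LV minus Spt. The unadjusted p was under 0.05 for Nppb alone of the members in the first and in the second comparison and for no member in the third, beside 6.05%, 8.91% and 7.18% of all genes, and DESeq2 called no member.

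The other genes of the pathway were read from lists of processing and clearance enzymes, cGMP signalling and transcription factors of the ligand promoters. Of the 7 genes of the first list 2 did not pass the filter on low counts, and the transcription factor Mef2c was not analysed here. In every comparison of banding with sham, none of the 5 tested processing and clearance genes, none of the 12 or 13 tested cGMP genes and none of the 15 tested transcription factors was called. In AOB-F LV, Mme, which encodes the peptide-degrading enzyme neprilysin, had a log2 fold change of -0.36 ± 0.36 and Dpp4, another peptidase, -0.22. Among the cGMP genes, 8 of 13 had higher means in AOB-F LV with a median of 0.07, beside 0.01 over all genes. The phosphodiesterases Pde3a and Pde1a were at -0.38 ± 0.73 and 0.32 ± 0.22. Of the transcription factors 5 of 15 had higher means there with a median of -0.05, and the cardiac factors Nkx2-5 and Gata6 were at -0.28 and -0.26. In PAB-F RV the medians were 0.08, 0.17 and 0.19, beside 0.00 over all genes. Ide, an insulin-degrading enzyme that also cleaves ANP, was at 0.80 ± 0.43 there and Mme at -0.35 ± 0.41. The cGMP-dependent kinase gene Prkg1 was at 0.80 ± 0.81 and Pde3a at 0.62 ± 0.97. The T-box factors Tbx20 and Tbx5 were at 1.05 ± 1.22 and 0.77 ± 0.51.

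The genes whose log2 CPM was most like that of each member were ranked over the 99 libraries, after the mean of each chamber and library series was subtracted, among 10425 genes. The libraries share animals and conditions, so these correlations only describe the set. Nearest to Nppa were Cdhr1 (r = 0.88), Cpa6 (0.87) and Cacna1g, a T-type calcium channel gene (0.85), and nearest to Nppb were Acta1, the skeletal muscle actin gene (0.88), Anxa5 (0.87) and Ptprt (0.86). Nppb stood at rank 5 for Nppa and Nppa at rank 13 for Nppb (r = 0.84). Corin was nearest to Mylk3, the cardiac myosin light chain kinase gene (0.91), and Npr1 to Acvrl1, a receptor gene of endothelial cells (0.89). Npr2 was nearest to Dgkz (0.81) and Npr3 to Sesn3 (0.79). Among the members themselves Npr3 had r = 0.51 with Nppa, Npr2 had r = -0.45 with Nppb, and Corin had r = -0.58 with Npr1.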

How the data were processed

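Ventricular and septal tissue of 33 rats gave 99 polyadenylated RNA libraries, sequenced with single-end reads. By the study's methods, Trim Galore and STAR (genome Rnor6.0, UCSC annotation, nf-core/RNA-seq) were used for trimming and mapping, and featureCounts gave the counts of each gene, reads that overlap several genes being left out. The strand setting of the counting is not given in the sources used here. The deposited table holds 17337 genes, 2218 of them without a count. The deposited counts are whole numbers, the deposited normalized counts are a signal that equals the counts over the size factor of the library, which the authors took from DESeq2, and the deposited FPKM values are the normalized counts divided by 1 constant per gene. Reads of amplified libraries are not independent molecules.

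Samples were grouped by their labels. The tissue field of RV samples names the LV, and title and source were followed. The RV column of Sham-LF replicate 1 is named after another sham group in the label, and its title was followed. The ages in the study's text differ from those of the labels given here. Library numbers fall into 3 runs, the library series. In LV and RV they hold 6, 21 and 6 libraries, and in Spt 6 libraries are of series 2 and 27 of series 3.

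Counts were tested with edgeR 4.0.16 in R 4.3.3 (quasi-likelihood test, TMM, filterByExpr defaults), with the 33 libraries and 7 conditions of a chamber in 1 fit, or all 99 libraries for comparisons between chambers, and without covariates. The older shams were the mean of Sham-LF and Sham-RF. CPM used TMM, log2 CPM a prior count of 2. Relations used 100000 permutations. The scripts were tested on simulated data. DESeq2 1.42.0, RLE size factors, no filter, library series as covariate or alone, other fits, leaving out each animal, 3 animals or libraries whose Myl7 exceeded 5 times the chamber median, and a replicate or animal block were the alternatives. Leaving out libraries with high Myl7 in comparisons of older shams, chambers or stages, leaving out single animals in the tests of stage and chamber, series 1 alone for banding or series 2 alone for the stage test, and relations and animal counts without the 3 animals were chosen after seeing the data. The members, the lists and the rule for naming genes (the 6 members and Myl7 everywhere, and in each list the genes with the largest change above 1 CPM) were chosen with earlier results of these data known. Same-numbered animals of different groups did not deviate together in every pair (median correlation of deviations -0.26 to 0.39 over the comparisons), and numbers were not taken to pair them. The 3 chambers of an animal are paired by the labels. Their median correlation was 0.42 between LV and RV, 0.16 between LV and Spt and 0.17 between Spt and RV. It was above 0.1 in 27, 18 and 22 of 33 animals. The correlations alone thus did not separate the kinds of pair, and the labels were followed.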

Additional observations from a re-analysis of the deposited data

Results flagged for a closer look

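In 84 tests of the most extreme sample, of the 6 members and Myl7 in each group of 4 to 10 libraries, 17 stood apart by Dixon's criterion on CPM. The criterion's rate of about 1 in 20 by chance holds for normally distributed values. CPM of Nppa and Myl7 was skewed, with an SD above the mean in several groups, so the 17 cannot be set against that rate. For Nppa they were AOB-H LV replicate 3 (4551 CPM, next highest 1542), AOB-H RV replicate 1 (6713 CPM, next 2630), PAB-H RV replicate 1 (3811 CPM, next 1184), Sham-H LV replicate 6 (4222 CPM, next 1167.2) and Sham-H RV replicate 7 (1961 CPM, next 475). AOB-H RV replicate 1 also stood apart for Nppb, with 1054.1 CPM and 396 CPM in the next library. Its LV and RV libraries are among those that went against their labels.

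For Npr2 the lowest library stood apart in AOB-F LV (replicate 1, 29.4 CPM, next 41.3) and PAB-H Spt (replicate 6, 34.4 CPM), and the highest in PAB-H LV (replicate 3, 46.3 CPM). AOB-F LV replicate 1 was also the library with the highest Nppa.

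Myl7 stood apart, always upward, in AOB-F LV replicate 4 (268 CPM), AOB-F RV replicate 2 (511 CPM), AOB-H RV replicate 3 (1097 CPM), PAB-H LV replicate 2 (546 CPM), PAB-H RV replicate 1 (1131 CPM), PAB-H Spt replicate 1 (84.3 CPM), Sham-H LV replicate 6 (1035.9 CPM) and Sham-H RV replicate 7 (596 CPM). Nppa stood apart in 3 of these 8 libraries, namely PAB-H RV replicate 1, Sham-H LV replicate 6 and Sham-H RV replicate 7.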

How the results depend on the processing

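Of 443 recomputed counts of members called, 417 stayed within 1.5 times the count reported. The count reported was 0 in every comparison except AOB-F against Sham-LF in LV, so elsewhere this only means that again no member was called. Of 2658 recomputed log2 differences 2593 kept their side of the threshold. These either kept their direction too, or turned with both values below their standard errors. In LV of AOB-F, where 1 member was called, DESeq2 called 2, and 0 were called with all 99 libraries in 1 fit, with the compared groups alone, with library series 2 alone, without the filter on low counts, with the replicate block and without libraries over 5 times the Myl7 median. Leaving out 1 animal gave 0 to 2. Nppa then kept a log2 fold change of 3.30 to 4.06. In Spt of AOB-F, where none was called, DESeq2 called 3, RLE size factors 1, no filter 2, the replicate block 2 (Nppa 3.68 and Nppb 1.42), and the set without high Myl7 3, and leaving out 1 animal gave 0 to 3. In RV of AOB-F the set without high Myl7 gave 3. In Spt, AOB-H gave 1 with DESeq2 and 0 to 2 without 1 animal, PAB-F gave 2 with the compared groups alone, and the older shams gave 0 to 1 without 1 animal. Spt minus RV in Sham-H gave 1 with the series as covariate (Nppb 1.39). The cause of these differences was not tested.

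The direction turned for 26 differences that reached their standard error in at least 1 of the fits compared, none of them called. Turns with both values below their standard errors were not counted. Leaving out 1 animal turned Npr2 in LV of AOB-F (-0.15 to 0.016) and Nppa in the chamber test of AOB-F (-1.91 to 1.22). Without high Myl7 the values were -2.98 for Nppa and -0.79 for Npr3 in that chamber test, 0.086 for Nppa and 0.16 for Nppb in LV of PAB-H, 0.16 for Nppa in LV of the older shams, and -0.17 for Npr2 in RV of AOB-F. Library series 3 alone, with 2 animals a group, gave for AOB-H -2.89 for Nppa and -0.38 for Npr3 in LV and -3.16 for Nppa and -0.70 for Nppb in RV, and for PAB-H 0.22 for Nppb, -0.024 for Corin and 0.18 for Npr1 in LV and -3.00 for Nppa and -0.66 for Nppb in RV. Series 2 alone gave 0.34 for Npr3 in LV of PAB-H, and 0.78 for Nppa and 0.013 for Nppb in RV of the older shams. Series 1 alone gave -0.18 for Nppb in LV and -0.25 for Npr2 in RV of AOB-H, and 0.48 for Nppa in LV of PAB-H. The replicate block gave 0.47 for Corin and 0.45 for Npr3 in LV and 0.73 for Corin in RV of the older shams. Same-numbered animals did not deviate together in every pair of any comparison (lowest correlation -0.32, highest 0.79), so the replicate block stands here as an alternative only. With the animal as block, no member was called in the chamber comparisons either. Nppa had 699 counts or more in every library.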
